A study of Arabidopsis thaliana with 8 samples.

Results

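The 10 genes described here encode the LAFL transcription factors of seed maturation and the factors that work beside them: LEC1 (AT1G21970) and its closest relative L1L (AT5G47670, NF-YB6 in RefSeq), LEC2 (AT1G28300), FUS3 (AT3G26790), ABI3 (AT3G24650), ABI4 (AT2G40220), ABI5 (AT2G36270), bZIP53 (AT3G62420), bZIP67 (AT3G44460, DPBF2 in RefSeq) and WRI1 (AT3G54320). They were taken by gene identifier from the read pair counts of 33602 Arabidopsis gene models, with no threshold on their values. Transcripts were counted by RNA-seq in epidermis and mesophyll of embryo cotyledons, with 4 libraries of each tissue, all from untreated wild-type plants of the Col-0 accession. The tissues were separated by laser-assisted microdissection, in which a laser cuts a chosen area out of a thin section of a paraffin-embedded seed. The labels give the developmental stage of every sample as 6.30 on the Boyes scale, and the study's text speaks of torpedo embryos in its results and of linear embryos in its methods. Each sample was a pool of sections, so a level is an average over many cells of an area chosen by its place in the section, and no genetic marker was used to choose the cells. In such bulk samples fewer cells of a type and less RNA per cell cannot be told apart.

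LEC1 and L1L are NF-YB proteins, which bind DNA as part of a complex with an NF-YA and an NF-YC subunit. LEC2, FUS3 and ABI3 carry a B3 domain that binds the RY motif of many seed genes, and the bZIP factors bind G-box elements and join them there. In the embryo these proteins switch on the accumulation of storage proteins and oil and are known to act on each other's genes. Endosperm and seed coat lie close to the embryo in a section, and LEC1 and L1L are known to be transcribed in endosperm as well as in embryos.

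The libraries held between 27676412 and 36685627 counted read pairs, and between 17796 and 19103 gene models had a pair in the epidermis libraries, against 18023 to 19004 in the mesophyll libraries. Levels are given as TMM-scaled CPM, which are read pair counts relative to the library total after a correction for the composition of each library. To check the tissue labels, marker genes were read first. Of 11 protoderm markers 9 were called higher in epidermis, against 0.981% of all genes tested. Of 9 photosynthesis markers 3 were called lower there, against 0.101% of all genes tested. The protoderm markers ACR4 and ALE2 were not called. Summed over the 14 endosperm markers the level was 315, 249, 185 and 279 CPM in the epidermis libraries, against 55.6, 55.8, 17.6 and 72.8 CPM in the mesophyll libraries, and PHE1 had no read pair in any library. Of the endosperm markers 6 were tested and 1 was called, the sucrose transporter SUC5 with 145 CPM in epidermis and 44.6 CPM in mesophyll. ALE1 averaged 45.6 CPM in epidermis and 1.3 CPM in mesophyll, and EPR1 averaged 24.1 CPM in epidermis and 0.762 CPM in mesophyll. MYB118 averaged 23.8 CPM in epidermis and 0.727 CPM in mesophyll, and ZOU 12.05 CPM in epidermis and 0.357 CPM in mesophyll. All of these were tested through their epidermis libraries and none was called. The study proposes, from MYB118, a probable contamination of epidermis by endosperm, which was not tested here. SUC5 was the largest single part of each sum, with 172, 201, 92.3 and 114 CPM in epidermis and 54.4, 46.9, 16.5 and 60.6 CPM in mesophyll. FIS2, MEA, MINI3, IKU2, MPC and SDC averaged below 1 CPM in both tissues, and FWA had pairs in epidermis replicate 4 only. The 16 seed coat markers summed to between 39.7 and 69.8 CPM in epidermis and between 7.53 and 18.3 CPM in mesophyll, with SHP2 and TT16 at 0 throughout. Of the 3 tested 1 was called higher in epidermis (NARS1). NARS1 had at most 0.0355 CPM in mesophyll and MYB56 had no pair there, so both could be tested only through their epidermis libraries. This count therefore says nothing on direction, and MUM2, with a higher mean in mesophyll, was not tested. Vascular markers summed to 3.58, 4.06, 48 and 83.0 CPM in epidermis replicates 1 to 4, and to between 50.7 and 91.6 CPM in mesophyll.

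Most members lie as single, non-overlapping genes on chromosomes 1, 2, 3 and 5 of the TAIR10.1 assembly. The annotated RefSeq span of L1L overlaps AT5G47660 and AT5G47680, and the libraries kept no strand. Pairs that matched a second place equally well were dropped, so pairs from a shared stretch may be missing from L1L. Whether the counted model holds such a stretch was not examined. The promoters of LEC1, FUS3 and ABI5 are shown because these were the members with an unadjusted p under 0.05 between the tissues. Each window runs from 250 bases before to 50 bases after the annotated start, on the strand of the gene, in RefSeq TAIR10.1: LEC1 at chr1:7729600-7729899, FUS3 at chr3:9856163-9856462 and ABI5 at chr2:15207587-15207886, all on the minus strand. Capitals mark 4 kinds of motif searched on both strands, the RY motif (CATGCA), the G-box (CACGTG), the CCAAT box to which NF-Y complexes bind (CCAAT) and the L1 box of protoderm genes (TAAATGCA or TAAATGTA).
LEC1: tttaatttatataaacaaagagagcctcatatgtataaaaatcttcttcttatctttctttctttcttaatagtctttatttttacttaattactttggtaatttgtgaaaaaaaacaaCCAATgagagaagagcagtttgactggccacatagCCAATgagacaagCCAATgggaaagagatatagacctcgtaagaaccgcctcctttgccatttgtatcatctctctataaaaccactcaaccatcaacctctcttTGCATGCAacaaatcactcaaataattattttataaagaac
FUS3: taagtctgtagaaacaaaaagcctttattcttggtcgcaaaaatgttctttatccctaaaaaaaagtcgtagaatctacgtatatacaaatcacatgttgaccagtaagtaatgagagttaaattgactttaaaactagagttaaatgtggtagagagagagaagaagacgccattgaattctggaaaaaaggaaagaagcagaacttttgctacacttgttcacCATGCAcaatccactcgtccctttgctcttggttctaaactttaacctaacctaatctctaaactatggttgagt
ABI5: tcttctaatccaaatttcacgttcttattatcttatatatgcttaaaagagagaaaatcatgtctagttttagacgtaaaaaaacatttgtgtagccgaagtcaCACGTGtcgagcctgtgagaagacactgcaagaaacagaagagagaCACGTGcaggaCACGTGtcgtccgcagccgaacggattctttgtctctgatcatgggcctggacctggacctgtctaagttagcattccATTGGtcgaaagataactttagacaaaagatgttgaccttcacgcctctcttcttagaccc

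In LEC1 the capitals are 3 CCAAT boxes, the nearest ending 79 bases before the start, and an RY palindrome at bases 10 to 17 of the transcript, which holds 2 overlapping matches. FUS3 held 1 RY motif, 25 to 20 bases before its start. ABI5 held 3 G-boxes, of which the nearest ended 84 bases before the start, and 1 CCAAT box. Over all members the RY motif was in 3 of 10 windows (LEC1, FUS3 and bZIP67) and in 9.72% of 27443 promoters of the same length, and the G-box in 1 of 10 and in 7.68%. A CCAAT box was in 4 of 10 member windows and in 51.6% of promoters, and the L1 box in none of the 10 and in 5.1% of promoters. These matches describe the letters of the windows and nothing was measured at them here.

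The first comparison asked which of the regulators differ in transcript level between epidermis and mesophyll. LEC1 was about 5-fold higher in epidermis, and FUS3 was about 2-fold higher with no overlap of the tissues but did not pass the test. ABI5, low in both tissues, had a lower mean in epidermis, with overlapping libraries and no call. The levels of L1L, ABI3 and WRI1 differed little between the tissues, and ABI4 and bZIP67 were not called, with intervals that reached about 2-fold. LEC2 was high in replicates 2 and 3 of both tissues and was not called, and bZIP53 was close to absent. Of the 10 members 9 reached 1 CPM in at least 4 of 8 libraries and were tested. In the edgeR quasi-likelihood test 1 of the 9 was called at a Benjamini-Hochberg adjusted p of 0.05 or less, LEC1, against 1.08% of all 15794 genes tested (0.981% higher and 0.101% lower in epidermis). With no replicate number in the fit LEC1 was again the call, against 2.29% of all genes (1.75% higher, 0.538% lower). The tissues did not overlap in 2 of the 9, LEC1 and FUS3, both higher in epidermis, against 10% of all genes, 5.5% higher and 4.51% lower. An unadjusted p under 0.05 was found for 3 of the 9, against 11.8% of all genes. The median log2 fold change of epidermis over mesophyll was 0.01 over the 9 members and -0.039 over all genes.

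**Figure D1:**
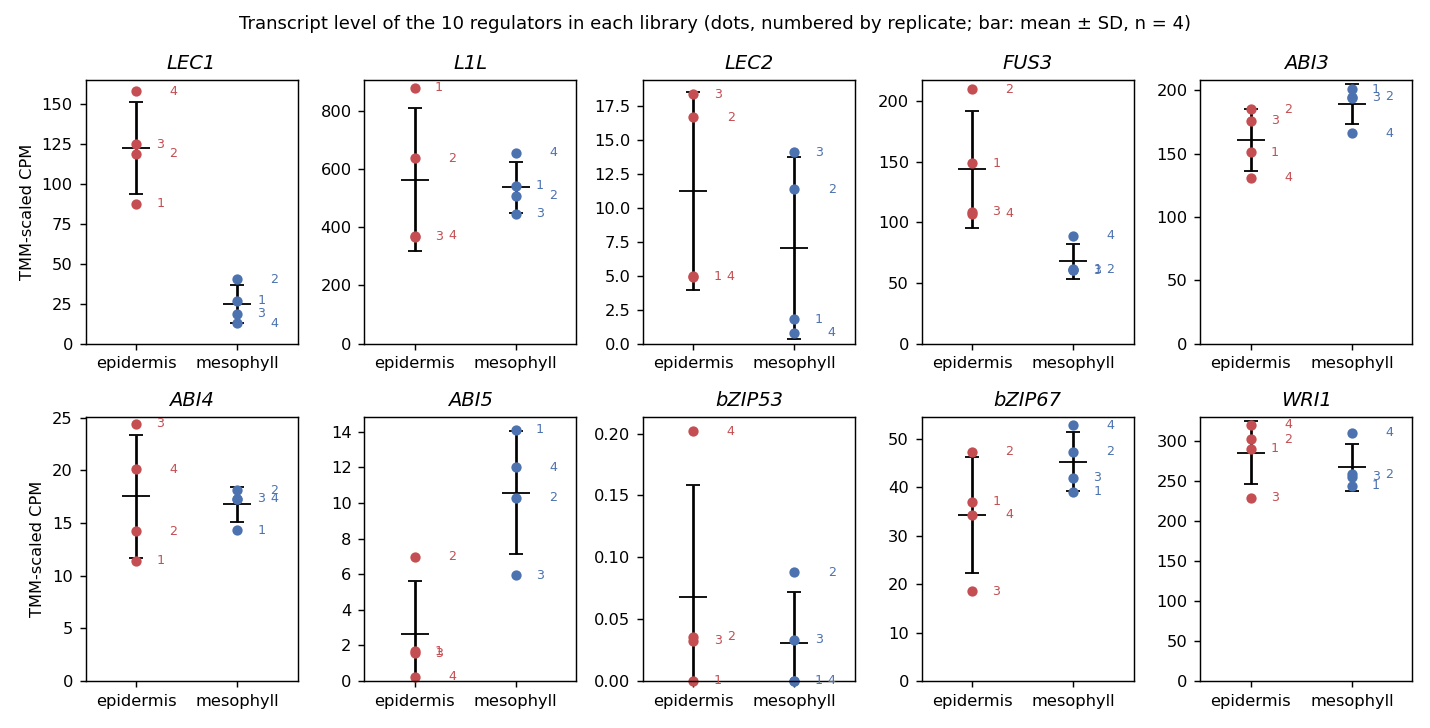
TMM-scaled CPM of the 10 regulators (vertical axes, each panel with its own scale from 0) in the epidermis and mesophyll libraries; dots are libraries numbered by replicate, bars are the mean ± SD of 4 libraries, cut at 0. LEC1 sat between 87.5 and 158 CPM in epidermis and between 12.6 and 40.2 CPM in mesophyll, and bZIP53 never passed 0.202 CPM.

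LEC1, which starts the maturation program and whose loss gives embryos with leaf-like cotyledons, had 87.5, 119, 125 and 158 CPM in epidermis replicates 1 to 4, against 26.9, 40.2, 18.7 and 12.6 CPM in mesophyll replicates 1 to 4. Every epidermis library was above every mesophyll library, and the lowest epidermis value was more than double the highest mesophyll value. The means were 122 ± 28.8 CPM in epidermis and 24.6 ± 11.9 CPM in mesophyll (SD, n = 4 each). The log2 fold change was 2.40 with a standard error of 0.38 and a 95% interval of 1.53 to 3.27, which is 5.29-fold (edgeR quasi-likelihood adjusted p = 0.0268). At least 391 read pairs were counted for it in each library. The call ended without replicate 1 (log2 fold change 2.66, adjusted p = 0.0858) and without replicate 3 (2.27, adjusted p = 0.154), while it held with any single library left out and no replicate number in the fit (adjusted p between 0.0041 and 0.024). The summed endosperm and seed coat markers were higher in the same 4 libraries as LEC1, as were the protoderm markers, and their part in the LEC1 difference was not tested.

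L1L, which can stand in for LEC1 when expressed in its place, was the most abundant of the regulators. It had 880, 638, 367 and 371 CPM in the epidermis libraries, against 544, 508, 447 and 656 CPM in the mesophyll libraries. The epidermis values enclosed those of mesophyll, with replicates 1 and 2 high and 3 and 4 low. The means were 564 ± 246 CPM in epidermis and 539 ± 87.9 CPM in mesophyll, and the log2 fold change of -0.02 had a 95% interval of -0.59 to 0.55 (edgeR quasi-likelihood adjusted p = 0.989). A difference of more than about 1.5-fold in either direction thus lay outside the interval, and the sign turned with the setting.

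LEC1 and L1L were also set against each other within each library, which needs no scaling between libraries. LEC1 pairs amounted to 9.94, 18.6, 34.1 and 42.5% of L1L pairs in epidermis replicates 1 to 4, against 4.94, 7.91, 4.18 and 1.92% in mesophyll replicates 1 to 4. All epidermis shares were above all mesophyll shares. The ratio was 5.41-fold higher in epidermis (log2 difference 2.43, two-sided exact permutation p = 0.0286, the smallest that 70 arrangements can give, n = 4 each). Adjusted over the 4 ratios tested the exact p was 0.0571. The ratios reuse the counts of the members, so they are not separate evidence of a difference. The log2 difference was 1.76 without replicate 4 and 2.91 without replicate 1. The mean of the ratio differed between the tissues by more than the spread of the libraries, 0.94 (SD) in epidermis and 0.85 in mesophyll on the log2 scale.

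FUS3, a B3 factor of storage protein and lipid accumulation that also restrains leaf traits in cotyledons, had 149, 210, 109 and 107 CPM in epidermis, against 61.2, 60.8, 60.4 and 89.2 CPM in mesophyll. The tissues did not overlap, and mesophyll replicate 4 came closest to the epidermis values. The means were 144 ± 48.2 CPM in epidermis and 67.9 ± 14.2 CPM in mesophyll, and the log2 fold change was 1.05 ± 0.27 (SE) with a 95% interval of 0.43 to 1.67. The unadjusted p was 0.00443 and the edgeR quasi-likelihood adjusted p was 0.14, so FUS3 was not called. The likelihood ratio test with the same terms called it (adjusted p = 0.0203) together with LEC1, which makes 2 of 9 members against 5.2% of all genes (3.53% higher, 1.67% lower). A likelihood ratio test was also the study's own test, and the study tabled FUS3 and LEC1 as differentially expressed in epidermis. DESeq2 called FUS3 (adjusted p = 0.00383), as did limma-voom (0.0111), against 8.36% of all genes called by DESeq2 (4.98% higher, 3.38% lower) and 3.15% by limma-voom (2.11% higher, 1.04% lower). The endosperm and protoderm sums were higher in the same libraries as FUS3, and their part was not tested.

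ABI3, the B3 factor that relays abscisic acid to seed genes, had 151, 185, 176 and 131 CPM in epidermis, against 201, 195, 194 and 166 CPM in mesophyll. It was lower in epidermis in 4 of 4 replicate numbers, by small amounts, though the numbers were not shown to pair the libraries, and the tissues overlapped. The log2 fold change was -0.24 ± 0.16 (SE; edgeR quasi-likelihood adjusted p = 0.672). FUS3 pairs amounted to 98.5, 114, 62.0 and 81.3% of ABI3 pairs in the epidermis libraries, against 30.4, 31.1, 31.1 and 53.6% in the mesophyll libraries. The shares did not overlap, and the ratio was 2.45-fold higher in epidermis (two-sided exact permutation p = 0.0286, adjusted p = 0.0571 over the 4 ratios, n = 4 each). LEC1 pairs set against FUS3 pairs gave 58.8, 56.5, 114 and 148% in epidermis, against 43.9, 66.2, 30.9 and 14.1% in mesophyll. These shares overlapped, and their log2 difference of 1.37 had an exact permutation p of 0.0857, adjusted 0.114 (n = 4 each), and was 0.69 without replicate 4.

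LEC2, a B3 factor that induces somatic embryos when expressed in leaves, was low. It had 4.96, 16.7, 18.4 and 4.94 CPM in epidermis replicates 1 to 4, against 1.81, 11.4, 14.1 and 0.804 CPM in mesophyll replicates 1 to 4. In both tissues replicates 2 and 3 were high and replicates 1 and 4 low, and within each number epidermis was the higher. The means of replicates 2 and 3 exceeded those of 1 and 4 by 3.55-fold in epidermis and 9.74-fold in mesophyll. The replicate number took 75.3% of the sum of squares of log2 CPM and the tissue 16.6%, and 7.86% of all genes tested had as large a share for the number. The log2 fold change of 1.23 ± 0.72 (SE) was not called (edgeR quasi-likelihood adjusted p = 0.613). What the replicates with one number share was not given by the labels. In the other tested members the replicate number took between 3.51% (LEC1) and 68.5% (WRI1). It took more than the tissue in L1L, ABI3, ABI4, bZIP67 and WRI1 as well. Over all genes the medians were 36.6% for the number and 13.6% for the tissue. A factor of 4 numbers can take more than a factor of 2 tissues even with no effect.

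**Figure D2:**
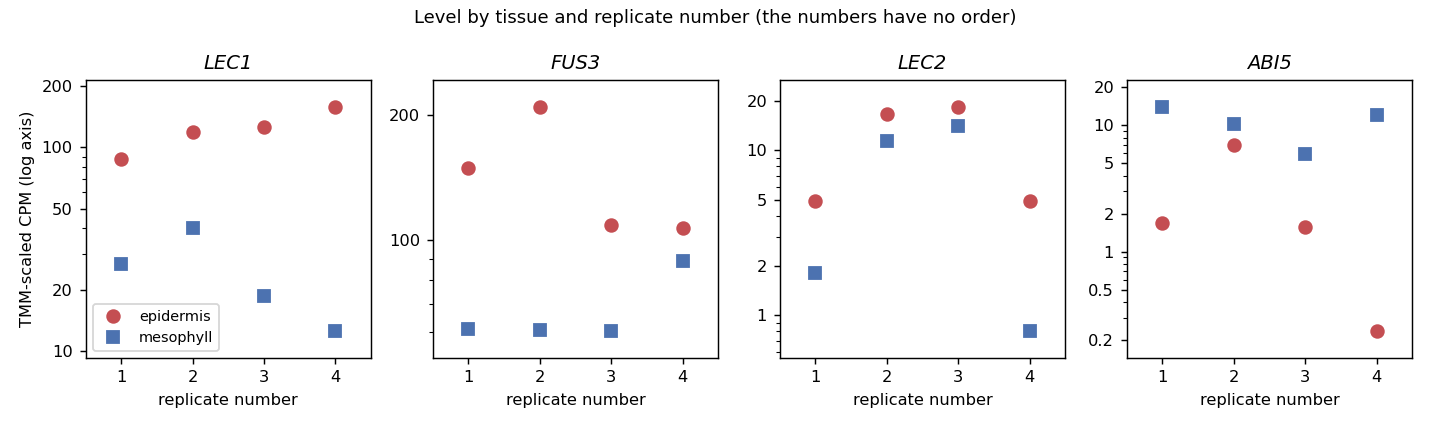
TMM-scaled CPM on log axes of LEC1, FUS3, LEC2 and ABI5 by replicate number, with epidermis as red circles and mesophyll as blue squares. Epidermis was above mesophyll at all 4 numbers for LEC1, FUS3 and LEC2 and below it at all 4 for ABI5, and LEC2 was high at numbers 2 and 3 in both tissues. The numbers were not shown to pair the libraries.

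ABI5, a bZIP factor of abscisic acid responses in late seed development and germination, was the lowest of the tested members per length in epidermis. It had 1.67, 6.98, 1.56 and 0.235 CPM in epidermis, against 14.1, 10.3, 5.94 and 12 CPM in mesophyll. It was lower in epidermis in 4 of 4 replicate numbers, which were not shown to pair the libraries. The tissues overlapped through epidermis replicate 2 and mesophyll replicate 3. The means were 2.61 ± 2.99 CPM in epidermis and 10.6 ± 3.48 CPM in mesophyll. The log2 fold change of -2.69 ± 1.14 (SE) had a 95% interval of -5.30 to -0.07, an unadjusted p of 0.0454 and an edgeR quasi-likelihood adjusted p of 0.408. The log2 fold change lay between -3.46 (without replicate 2) and -1.63 (without epidermis replicate 4, with no replicate number in the fit) under the alternatives run, and was -1.86 without replicate 4. Epidermis replicate 4 held 7 of its pairs and epidermis replicate 2 held 196. DESeq2 called it (log2 fold change -2.68, adjusted p = 0.0366), the only lower call among its 3 calls of 9 members.

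bZIP67, which joins LEC1 or L1L and NF-YC2 on seed promoters, had 37.0, 47.4, 18.5 and 34.3 CPM in epidermis, against 39.1, 47.4, 42.0 and 52.8 CPM in mesophyll. The tissues overlapped and epidermis replicate 3 was the lowest library (log2 fold change -0.47 ± 0.30 SE, edgeR quasi-likelihood adjusted p = 0.651). bZIP53, which pairs with other bZIP factors and with ABI3 on storage protein promoters, had 0, 1, 1 and 6 read pairs in epidermis, against 0, 3, 1 and 0 in mesophyll. These 12 pairs in all put it at most at 0.202 CPM, near the 0.0878 to 0.107 CPM that 3 pairs are worth, so it was not tested and no difference could be detected at this depth. The ratio of bZIP67 to bZIP53 pairs, one of the 4 ratios over which p-values were adjusted, rests on bZIP53 counts of 0 to 6 pairs and is not read here.

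ABI4 and WRI1 belong to the AP2 family. ABI4, a regulator of abscisic acid and sugar responses, had 11.4, 14.2, 24.4 and 20.1 CPM in epidermis, against 14.3, 18.1, 17.3 and 17.3 CPM in mesophyll. The epidermis values enclosed those of mesophyll, and the log2 fold change of 0.01 had a 95% interval of -0.99 to 1.01 (edgeR quasi-likelihood adjusted p = 0.997). WRI1, which acts downstream of LEC2 and LEC1 on glycolysis and fatty acid synthesis, had 290, 302, 229 and 320 CPM in epidermis, against 244, 258, 255 and 310 CPM in mesophyll. The tissues overlapped, and its 95% interval of -0.27 to 0.45 around a log2 fold change of 0.09 was the narrowest of the members (adjusted p = 0.896).

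**Figure D3:**
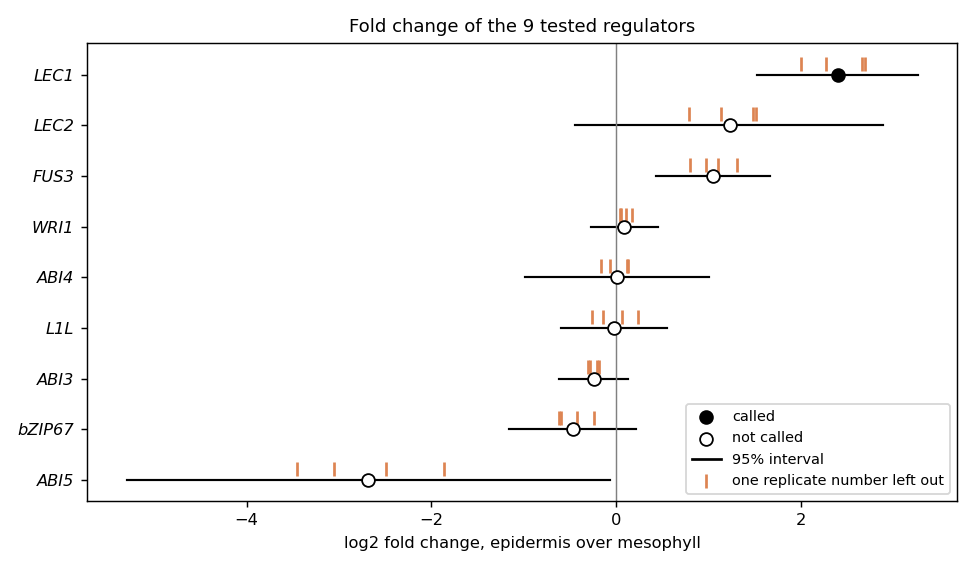
Log2 fold change of epidermis over mesophyll (horizontal axis) for the 9 tested regulators, as edgeR estimates with 95% intervals; orange ticks are the estimates with each replicate number left out, and the filled circle is the called gene. LEC1 at 2.40 and FUS3 at 1.05 had intervals above 0, ABI5 at -2.69 had an interval ending at -0.07, and the other 6 intervals included 0.

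Levels of different genes were compared per length, as TMM-scaled CPM per kb of the counted gene model. These models ran from 936 bases (LEC1) to 2987 bases (ABI3). The study reports a slightly lower RNA integrity for epidermis than for mesophyll. How pairs were spread along the models was not examined, so the order between genes of unlike length is approximate. In epidermis the order ran L1L (602 ± 262), WRI1 (194 ± 26.9), LEC1 (131 ± 30.8), FUS3 (104 ± 34.9), ABI3 (53.8 ± 8.15), bZIP67 (27.8 ± 9.70), ABI4 (17.8 ± 5.92), LEC2 (8.54 ± 5.55) and ABI5 (1.52 ± 1.74 CPM per kb; mean ± SD, n = 4). In mesophyll it ran L1L (575 ± 93.8), WRI1 (181 ± 20.2), ABI3 (63.4 ± 5.25), FUS3 (49.2 ± 10.3), bZIP67 (36.8 ± 4.90), LEC1 (26.3 ± 12.8), ABI4 (17.0 ± 1.72), ABI5 (6.15 ± 2.02) and LEC2 (5.33 ± 5.09 CPM per kb). LEC1 thus took place 3 in epidermis and place 6 in mesophyll. Among all tested genes its level per kb stood at percentile 93.7 in epidermis and 71.8 in mesophyll. L1L stood above every other member in every library of both tissues. Neighbours whose libraries overlapped in epidermis were WRI1 and LEC1, LEC1 and FUS3, bZIP67 and ABI4, ABI4 and LEC2, and LEC2 and ABI5, while the ranges of FUS3, ABI3 and bZIP67 followed each other without overlap. In mesophyll ABI3 and FUS3, bZIP67 and LEC1, LEC1 and ABI4, and ABI5 and LEC2 overlapped.

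**Figure D4:**
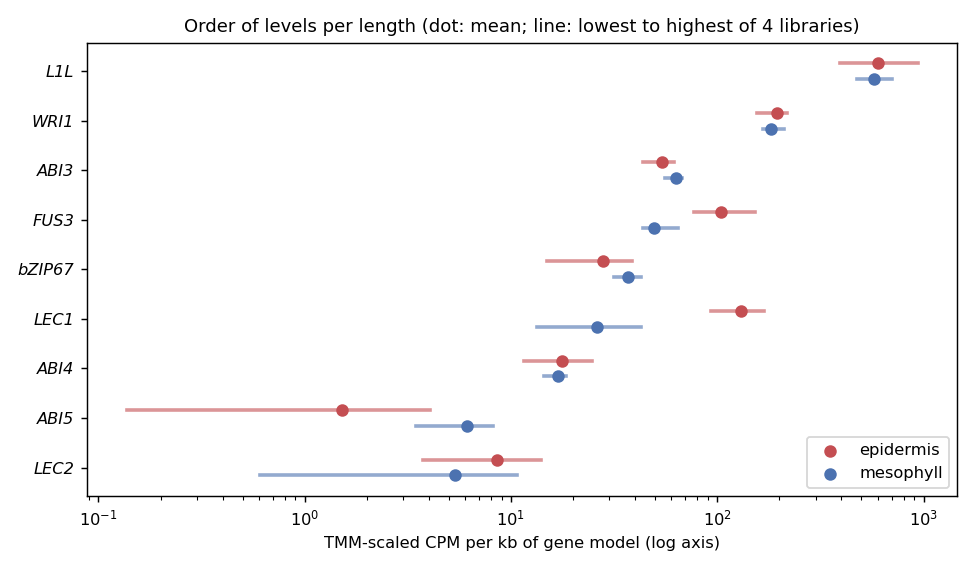
TMM-scaled CPM per kb of gene model (log axis) of 9 regulators in epidermis (red) and mesophyll (blue), ordered by the mesophyll mean; dots are means and lines run from the lowest to the highest of 4 libraries. LEC1 was at 131 CPM per kb in epidermis and 26.3 CPM per kb in mesophyll, and bZIP53 is left out because it was near 0.

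The make-up of the group was described by each gene's share of the summed level. LEC1 made up 12.3% of the summed level per kb of the 10 members in epidermis and 2.79% in mesophyll, and FUS3 made up 9.10% in epidermis and 5.09% in mesophyll. L1L made up 51.0% in epidermis and 59.6% in mesophyll, and WRI1 made up 17.6% in epidermis and 18.9% in mesophyll. In single libraries the LEC1 share lay between 6.51 and 17.6% in epidermis and between 1.21 and 4.56% in mesophyll, so the tissues did not overlap. These shares are descriptions, carry the same limit of gene length and were not tested.

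The genes with profiles most like LEC1 over the 8 libraries, by the root mean square difference of centred log2 CPM among 11455 genes at 10 CPM or more, were AT1G32583 (difference 0.36), AT2G27060 (0.37) and AT4G12870 (0.39). AT1G32583 averaged 144 CPM in epidermis and 33.1 CPM in mesophyll, AT2G27060 averaged 26.7 CPM in epidermis and 4.63 CPM in mesophyll, and AT4G12870 averaged 80.6 CPM in epidermis and 11.1 CPM in mesophyll. LEC1 itself varied by 1.30 about its own mean on this scale. Nearest to FUS3 were IDD1, which encodes a zinc finger protein of the INDETERMINATE DOMAIN family (0.18), LACS4, a long-chain acyl-CoA synthetase (0.20), and AT1G76470 (0.21). IDD1 averaged 37.7 CPM in epidermis and 15.2 CPM in mesophyll, LACS4 had 223 CPM in epidermis and 121 CPM in mesophyll, and AT1G76470 had 229 CPM in epidermis and 106 CPM in mesophyll.

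Genes around the regulators were read from 7 lists. None of the genes in these lists was called by the edgeR quasi-likelihood test, and the numbers with an unadjusted p under 0.05 are given with each list. Over all genes tested 46.9% were positive and 11.8% had such a p. DESeq2, which called 8.36% of all genes, called 1 NF-Y subunit and 2 activators (higher in epidermis) and 1 storage or oil body gene (lower). It called none in the other 4 lists. Of the 12 NF-Y subunits, the partners of LEC1 and L1L, all were tested, 4 were positive and the median log2 fold change was -0.10, with 2 unadjusted p-values under 0.05, both higher. NF-YC2, the NF-YC partner that joins bZIP67, was the most abundant with 408, 339, 417 and 591 CPM in epidermis, against 297, 302, 262 and 289 CPM in mesophyll. Its tissues did not overlap and its log2 fold change was 0.58 ± 0.18 (SE, adjusted p = 0.227). NF-YA5 had the other small p, with 53.7 ± 13.6 CPM in epidermis and 30.6 ± 7.82 CPM in mesophyll (adjusted p = 0.312). Of 10 other seed and abscisic acid bZIPs 8 were tested, 4 of them positive, with a median of -0.05 and no p under 0.05. EEL, which competes with ABI5 for its binding sites, was the most abundant with 171 ± 62.0 CPM in epidermis and 190 ± 68.6 CPM in mesophyll.

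Of 11 activators and associated factors 5 were tested and all 5 were positive, against 46.9% of all genes. Their median log2 fold change was 0.94, and 3 had an unadjusted p under 0.05, against 11.8% of all genes. MYB118 is 1 of the 5 and 1 of the 3, and its sign was fixed because it reached 1 CPM in 4 libraries only through epidermis. The log2 fold changes of the others were 1.2 for PHB, 0.94 for PHV, 0.28 for WRI3 and 0.15 for AGL15. AGL15, a MADS factor that acts with the LAFL genes in embryos, had the highest mean over both tissues, with 158 ± 31.9 CPM in epidermis and 143 ± 33.2 CPM in mesophyll (adjusted p = 0.849). PHB, an HD-ZIP factor of the upper side of leaves and cotyledons that is known to bind the LEC2 promoter, had 172, 211, 154 and 151 CPM in epidermis, against 54.5, 69.5, 107 and 75.1 CPM in mesophyll. Its tissues did not overlap (log2 fold change 1.2 ± 0.24 SE, adjusted p = 0.0671), and its close relative PHV had 66.1 ± 16.1 CPM in epidermis and 35.2 ± 11.9 CPM in mesophyll (adjusted p = 0.313). MYB118, which stands in the endosperm list too, had the third small p (adjusted p = 0.0823). It could be tested through its epidermis libraries, with 0.391, 1.37, 0.564 and 0.579 CPM in mesophyll. MYB115 had no read pair in any library. In 15 of 21 alternatives, which reuse the same 8 libraries, 1 or 2 genes of the list were called, each time higher in epidermis. The share of all genes called was 2.29% with tissue only, 5.2% by the likelihood ratio test, 8.36% by DESeq2 and 3.15% by limma-voom. In the rest of these alternatives between 149 (without replicate 2) and 264 (without epidermis replicate 3) of all genes were called. The endosperm sums were higher in the epidermis libraries too, and their part was not tested.

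All 7 repressors of the maturation program were tested, 5 were positive and the median was 0.14, with no p under 0.05, and HDA19, a histone deacetylase, was the most abundant with 121 ± 33.4 CPM in epidermis and 118 ± 21.5 CPM in mesophyll. Of 10 genes of core abscisic acid signalling 9 were tested, 4 were positive and the median was -0.32, again with no p under 0.05. AFP2, which binds ABI5 and restrains it, led this list with 86.3 ± 21.1 CPM in epidermis and 73.6 ± 10.8 CPM in mesophyll.

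Among targets, 13 of 17 storage protein and oil body genes were tested and 12 were negative, while 46.9% of all genes were positive. Their median log2 fold change was -1.32 against -0.039 over all genes. An unadjusted p under 0.05 was found for 2 of them, both lower, against 11.8% of all genes in either direction. The list median was -0.38 without replicate 4 and -0.52 without replicate 2. The oleosin OLE3, which had the highest mean over both tissues, averaged 2094 ± 805 CPM in epidermis and 2668 ± 705 CPM in mesophyll. CRA1, a cruciferin storage globulin, had 2690, 701, 482 and 459 CPM in epidermis, against 1690, 3790, 1650 and 4590 CPM in mesophyll. The tissues overlapped through epidermis replicate 1 (log2 fold change -1.80 ± 0.59 SE, adjusted p = 0.248). The storage albumin SESA1 had the other small p, with 113 ± 56.5 CPM in epidermis and 268 ± 105 CPM in mesophyll (adjusted p = 0.32). EM6 had no read pair in any library. Summed over the list the level was 14700, 6040, 5160 and 5020 CPM in epidermis, against 8670, 20200, 7080 and 24200 CPM in mesophyll, and the tissues overlapped. All 12 glycolysis and fatty acid targets of WRI1 were tested, 11 were negative with a median of -0.16, and no p was under 0.05. ACP1, an acyl carrier protein, averaged 1635 ± 276 CPM in epidermis and 1380 ± 127 CPM in mesophyll, and PDH-E1A, a subunit of plastid pyruvate dehydrogenase, averaged 1420 ± 69.1 CPM in epidermis and 1595 ± 152 CPM in mesophyll.

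**Figure D5:**
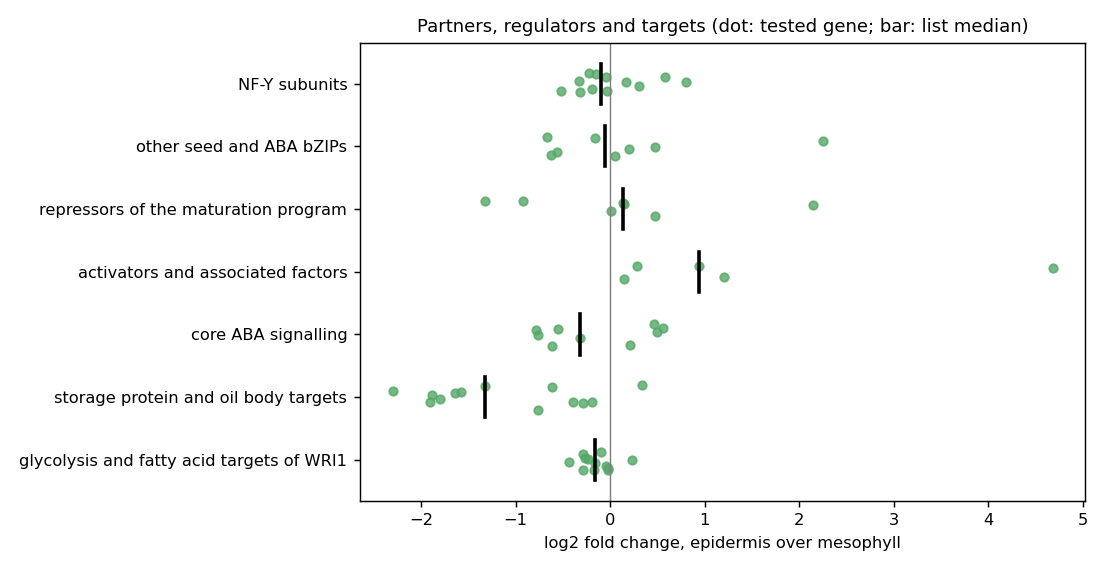
Log2 fold change of epidermis over mesophyll (horizontal axis) of the tested genes in 7 lists of partners, regulators and targets; dots are genes, spread vertically at random within a list, and bars are list medians. The median was 0.94 for the 5 activators, MYB118 included (0.58 without replicate 2). It was -1.32 for the storage protein and oil body genes (-0.38 without replicate 4) and between -0.32 and 0.14 in the other 5 lists.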

How the data were processed

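Counts of read pairs per gene model were used as deposited, for 4 epidermis and 4 mesophyll libraries of 27676412 to 36685627 pairs. Poly(A) RNA was amplified with a SMART-Seq kit, unstranded and with no molecular identifiers. The authors aligned pairs to representative TAIR10 gene models with Bowtie2 (the submitters' notes list TopHat2 too) and dropped singletons and reads that matched a second place equally well, which lowers counts of near-identical paralogs. Replicates were distinct libraries (chi-square per degree of freedom of 90.6 or more between any pair of a tissue). Model lengths came from the files. Positions, names and promoters came from RefSeq TAIR10.1, which matched 97.7% of 33602 identifiers and all 10 members.

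In edgeR 4.0.16 (R 4.3.3), the 15794 genes that reached 1 CPM in at least 4 libraries were fitted, after TMM scaling, with replicate number plus tissue. The replicate number stood for the harvest date fitted by the authors, though no label ties them. Genes with a Benjamini-Hochberg adjusted p up to 0.05 in the quasi-likelihood F test (legacy form) were called. Standard errors were the log2 fold change over the square root of F. Log2 ratios of pairs (0.5 added) were compared by two-sided exact permutation tests. The study describes replicates harvested on different dates, but the labels tie no library to a plant, so p-values reflect the spread among these libraries. Alternatives were tissue only, edgeR's likelihood ratio test, limma-voom (limma 3.58.1) and DESeq2 1.42.0, other scaling and filters, reads counted singly, and left-out replicates or libraries. The scripts were tested on simulated counts. The members, lists and ratios were chosen with earlier results of these data known. Named were all members, called genes and the most abundant gene of each list, the 3 profiles nearest LEC1 and FUS3, and markers at 0; other genes were named after their values were seen.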

Additional observations from a re-analysis of the deposited data

Results flagged for a closer look

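In 5 of 52 groups of 4 libraries examined (members, ratios and list sums in each tissue), the highest or lowest library lay apart from the other 3 by more than Dixon's 95% limit for a group of that size. Chance gives such a gap in about 1 in 20 groups, and the groups share libraries. FUS3 in mesophyll replicate 4 was at 89.2 CPM, with the other mesophyll libraries at 60.4 to 61.2 CPM. The log2 ratio of FUS3 to ABI3 in the same library was -0.90, with the others at -1.72 to -1.68. The repressors of the maturation program summed to 332 CPM in mesophyll replicate 4 and to 363 to 367 CPM in the other mesophyll libraries. The storage protein and oil body genes summed to 14700 CPM in epidermis replicate 1 and to 5020 to 6040 CPM in the other epidermis libraries. The protoderm markers summed to 290 CPM in mesophyll replicate 3 and to 718 to 768 CPM in the other mesophyll libraries. No cause was tested.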

How the results depend on the processing

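The direction of LEC1, LEC2, FUS3 and WRI1 (higher in epidermis) and of ABI3, ABI5 and bZIP67 (lower) was kept under every alternative run. LEC1 was called in 19 of 21, with a log2 fold change between 2 and 2.7. The number of members called was 2 by the likelihood ratio test, 3 by DESeq2, 2 by limma-voom, and between 0 and 2 with a replicate or library left out (0 without replicate 1 or 3, 2 without epidermis replicate 4, where FUS3 was called at an adjusted p of 0.0442). Among all genes 171 were called; the number was 361 with tissue only, 821 by the likelihood ratio test, 1320 by DESeq2, 497 by limma-voom, 257 with a filter of 10 CPM, between 55 and 150 with a replicate number left out, and, with tissue only and a library left out, between 162 (without epidermis replicate 2) and 264 (258 and 264 without epidermis replicate 1 or 3), all below the 361 of that fit with every library. L1L, at -0.02, turned to 0.07 with tissue only and with limma-voom, ranged from -0.26 to 0.24 with a replicate number left out (0.07 without replicate 3), and turned to 0.23 and 0.22 without epidermis replicate 3 or 4 and to 0.07, 0.04 and 0.17 without mesophyll replicate 1, 2 or 4. ABI4, at 0.01, turned to -0.04 with upper-quartile scaling, -0.02 with library totals and -0.01 with reads taken singly, ranged from -0.16 to 0.13 with a replicate number left out (-0.06 without replicate 4), and turned to -0.14 without epidermis replicate 3. The median of the NF-Y list turned to 0.08 without replicate 1, and that of core abscisic acid signalling to 0.22 with the 10 CPM filter, which ABI5 did not pass. The causes were not tested.

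The replicate numbers were not shown to pair the libraries. The correlations across genes between deviations of libraries with one number were 0.0102, -0.0019, 0.0702 and -0.0102, and 1 of 4 numbers matched itself best. With no replicate block the log2 fold change was 2.31 for LEC1 (adjusted p in edgeR 0.00636) and 1.08 for FUS3 (0.0501). Taken as pairs by number, the ratios of pairs could be tested only by an exact sign-flip test that cannot go below 0.125. With 3 replicates per tissue the permutation test cannot go below 0.1, which says nothing about stability. Levels near that of 3 pairs, as for bZIP53, are limited by depth.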
